A study of Homo sapiens with 6 samples.

Results

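The genes described here are 10 antiviral effectors of the interferon response, chosen by name from a table of 2885 genes: RSAD2, CMPK2, SAMD9, SAMD9L, BST2, XAF1, DDX60, EPSTI1, IFITM1 and IFITM3. All 10 were present, each in 1 row, and none was lost to the filter on low values. They were measured by RNA sequencing of RKO, a long-used cell line from a human carcinoma of the colon. The libraries were 3 labelled shKMT5A, with a genotype given as KMT5A knockdown, and 3 labelled shNC, the control hairpin, with a wild-type genotype. KMT5A is a methyltransferase of histone H4, and the series title names its methylation of the transcription factor IRF3 and immune suppression. The labels do not give the number of hairpins, the vector, the time after delivery or whether replicates were separate cultures, and every p-value therefore covers library-to-library spread alone, possibly technical.

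Type I and type III interferons bind receptors at the cell surface and activate a complex of transcription factors that includes STAT2 and IRF9. That complex binds the interferon-stimulated response element (ISRE) near target genes, and IRF3 and related factors can bind the same kind of element. Type II interferon acts through another element, the interferon-gamma activated site (GAS). The target genes encode effectors that act at different steps of infection, from entry at membranes to translation, release of particles and cell death.

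The values are read counts per gene divided by 1 factor per library (normalized counts), and the authors kept only genes that passed their own thresholds, so every gene in the table had already been called different in these libraries. Genes of the table held 1891460 to 1980866 reads in the libraries labelled shKMT5A and 1363382 to 1369655 in the shNC libraries, and total depth is unknown. KMT5A itself had 4015, 3898 and 3297 normalized counts in the libraries labelled shKMT5A, against 1298, 1245 and 1307 in those labelled shNC. It was higher where the label says knockdown (log2 fold change 1.54 ± 0.075 SE, limma, adjusted p = 1.00e-08), which goes against the label. With TMM scaling within the table the log2 fold change of KMT5A was 0.94. That scaling takes most genes as unchanged, which does not hold in a table of genes called different. Whether labels or columns were exchanged cannot be told from these files, and an exchange would turn every direction. Every direction below is that of the libraries labelled shKMT5A and is not attributed to a loss of KMT5A transcript. In bulk RNA, more cells expressing a gene and more transcript per cell cannot be told apart.

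Stretches around the transcript starts are shown first, because the genes are grouped by their response to interferon. RefSeq windows (GRCh38.p14) of 250 bases before and 50 after each transcript start matched all 10 genes, in 14 windows. They were searched on both strands for GAAANNGAA, a shortened core of the ISRE, and for TTCNNNGAA, the GAS. The ISRE core was found in windows of 8 of the 10 genes, 9 of 14 windows (64.3%). It was in 61.1% of 54 windows of other interferon-stimulated genes and in 8.11% of all 35116 windows. Of 55 such other genes in the table, 41 had a window, and 29 of these 41 (70.7%) held the ISRE core in a window. Over all genes with a window, 9.86% held it. The GAS was found in 4 of the 14 windows (28.6%), those of BST2, DDX60, EPSTI1 and IFITM1, against 18.5% of 54 windows of other interferon-stimulated genes and 7.66% of all windows. Below are 30 bases around the ISRE core match nearest to the start in 6 genes, written 5′ to 3′ on the strand of the gene, with matches of either motif in capitals. In EPSTI1, IFITM1 and BST2 a GAS overlaps an ISRE core by 3 bases, so 1 run of capitals covers both. Positions depend on the start chosen: all 30 bases shown for RSAD2, BST2, IFITM1 and IFITM3, 16 of 30 for DDX60 and 0 for EPSTI1 lie within exons of GENCODE 29 transcripts.
RSAD2 (chr2:6865790-6865819, plus strand): ggcgccagcgggaaacGAAAGCGAAgcgtt
DDX60 (chr4:168318792-168318821, minus strand): ttctgagaggagaaagGAAACCGAAactcc
EPSTI1 (chr13:42992278-42992307, minus strand): ctgctgctgaTTCTGAGAAACCGAAactca
IFITM3 (chr11:320882-320911, minus strand): aaaaggaaactgttgaGAAACCGAAactac
IFITM1 (chr11:314018-314047, plus strand): aaatacacacTTCTGAGAAACTGAAacgac
BST2 (chr19:17405741-17405770, minus strand): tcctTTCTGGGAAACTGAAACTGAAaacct

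The match shown for RSAD2 is also that of CMPK2, so 1 site is counted in a window of each gene. The genes lie head to head on chromosome 2, and the same 9 bases (chr2:6865806-6865814) lie at -79 to -71 from the RefSeq start of RSAD2, which are the first bases of RSAD2 at the start given in the file, and, on the other strand, at 6 to 14 after a start of CMPK2. The paralogs SAMD9 and SAMD9L, neighbours on chromosome 7, differed: SAMD9 held a match at -136 to -128, and SAMD9L held none. The 120 bases shown lie at -166 to -47 for SAMD9 and at -120 to -1 for SAMD9L, so they cover different positions. The SAMD9L stretch holds aaaactgaa, which differs from the ISRE core in its first letter only.
SAMD9 (chr7:93118026-93118145, minus strand): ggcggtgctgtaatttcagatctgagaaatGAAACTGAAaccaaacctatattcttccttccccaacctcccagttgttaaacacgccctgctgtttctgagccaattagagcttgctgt
SAMD9L (chr7:93148386-93148505, minus strand): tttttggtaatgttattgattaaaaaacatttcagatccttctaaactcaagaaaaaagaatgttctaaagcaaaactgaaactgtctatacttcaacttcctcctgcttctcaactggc

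XAF1 held no match of either motif in its windows. A match is a description of letters, not a site shown to be bound, and the absence of one says only that these letters are not in this window.

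**Figure D1:**
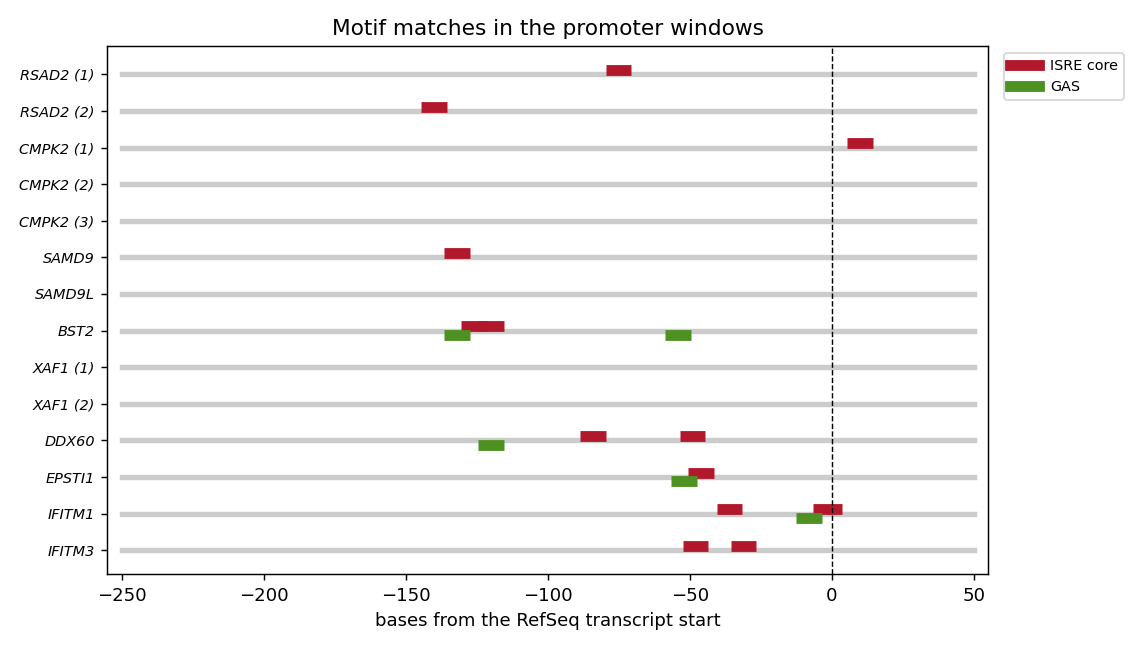
Positions of ISRE core and GAS matches in the 14 RefSeq promoter windows of the 10 genes; the horizontal axis gives bases from the transcript start (dashed line), grey bars are windows, and numbers after a name separate windows of 1 gene. Matches of the ISRE core lie within 150 bases of a start in 8 genes, and SAMD9L and XAF1 have none.

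All 10 genes were higher in the libraries labelled shKMT5A, in which every one of them lay above every shNC library. By limma, 10 of 10 passed an adjusted p of 0.05 as higher and 0 as lower, where 57.4% of all 2885 genes passed as higher and 42.6% as lower, and 57.2% of all genes had every library labelled shKMT5A above every shNC library. Since the authors had preselected the table, passing is built in. The size of the change is limited too, because the table holds no gene with a small log2 fold change by the authors' values. The medians that follow and the smallest changes are therefore cut off at the low end. Sizes and levels are given as a description of genes that passed this selection. The median log2 fold change (shKMT5A minus shNC, on log2 of normalized count + 1) was 3.73 over the 10 genes, 3.20 over 55 other interferon-stimulated genes, 1.81 over the 1655 genes called higher and 1.13 over all genes tested, higher and lower together. Within the 10 genes it ran from 1.02 for BST2 to 6.88 for RSAD2. For a single gene, an exact two-sided permutation test of 3 against 3 libraries cannot go below p = 0.1, the value that groups without overlap give.

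**Figure D2:**
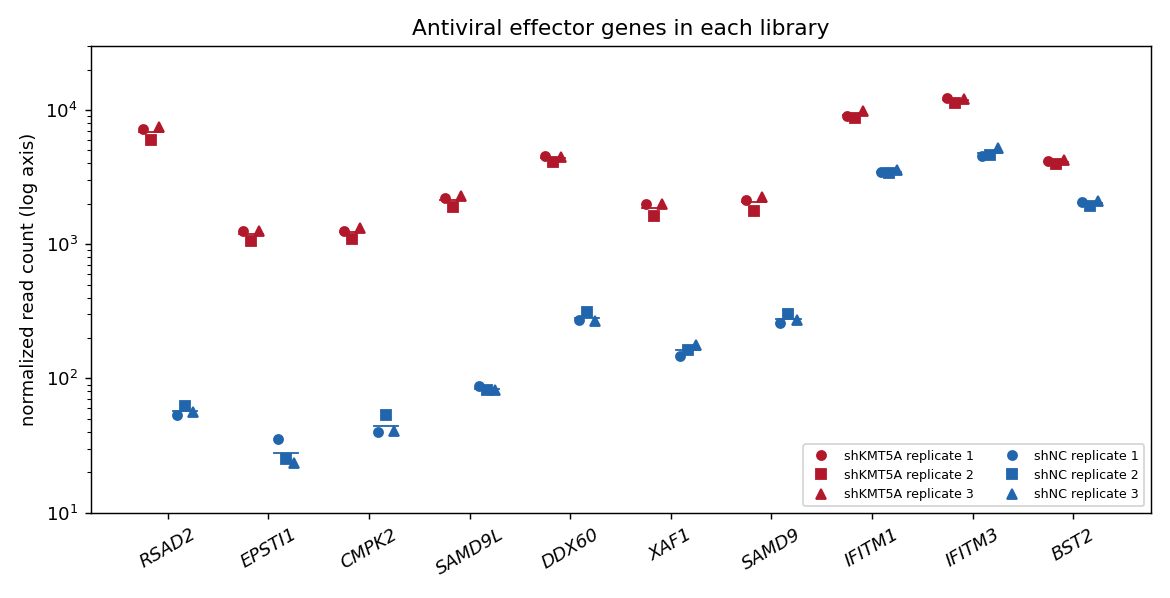
Normalized read counts of the 10 genes in each of the 6 libraries (log axis; symbols give the replicate, short lines the group mean, shKMT5A red and shNC blue). No gene overlaps between the groups, and the gap narrows from RSAD2 (6907 and 57.3 on average) to BST2 (4101 and 2028).

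RSAD2 (ENSG00000134321, chr2:6865806-6898239, plus strand, GRCh38 as in the file) encodes viperin, a radical SAM enzyme that turns CTP into a chain terminator of viral RNA synthesis. It had 7214, 5978 and 7529 normalized counts in the libraries labelled shKMT5A, against 53.3, 62.6 and 56.0 in the shNC libraries. Averages of 6907 ± 820 in the libraries labelled shKMT5A and 57.3 ± 4.75 in the shNC libraries (SD, n = 3 each) gave a 121-fold ratio and a log2 fold change of 6.88 ± 0.0997 SE (limma, adjusted p = 1.51e-12). Among all genes of the table it ranked 20 by log2 fold change, and among the 65 interferon-stimulated genes examined it ranked 5.

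CMPK2 (ENSG00000134326, chr2:6840570-6866635, minus strand), a mitochondrial nucleotide kinase, is the neighbour of RSAD2 and supplies the CTP that viperin uses. It had 1249, 1093 and 1322 normalized counts in the libraries labelled shKMT5A, against 40.0, 52.9 and 40.3 in the shNC libraries. Its log2 fold change was 4.76 ± 0.130 SE (limma, adjusted p = 1.40e-10). RSAD2 and CMPK2 share 14 exon bases on opposite strands in GENCODE 29, under 1% of either gene, so reads that both could claim are few. The ratio of RSAD2 to CMPK2 within a library was 5.78, 5.47 and 5.69 in the libraries labelled shKMT5A, against 1.33, 1.18 and 1.39 in the shNC libraries. RSAD2 thus changed more than its neighbour: the log2 ratio differed by 2.12 ± 0.0741 SE between groups (exact permutation p = 0.1, 0.15 after Benjamini-Hochberg adjustment over 3 pairs), without overlap. The smallest p this design allows is 0.1. Such a ratio does not depend on how libraries were scaled.

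IFITM1 (ENSG00000185885, chr11:313506-315272, plus strand) and IFITM3 (ENSG00000142089, chr11:319669-327537, minus strand) are small membrane proteins that block fusion of enveloped viruses with the cell, IFITM1 mostly at the cell surface and IFITM3 in endosomes. IFITM3 had 12315, 11265 and 12125 normalized counts in the libraries labelled shKMT5A, against 4512, 4621 and 5214 in the shNC libraries. IFITM1 had 9030, 8716 and 9826 in the libraries labelled shKMT5A, against 3465, 3363 and 3551 in the shNC libraries. Both were abundant in either group, and their changes were small beside those of RSAD2 and CMPK2. The log2 fold changes were 1.32 ± 0.0610 SE for IFITM3 and 1.41 ± 0.0535 SE for IFITM1 (limma, adjusted p = 6.74e-09 and 1.58e-09).

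The ratio of IFITM1 to IFITM3 overlapped between groups. It was 0.733, 0.774 and 0.810 in the libraries labelled shKMT5A, against 0.768, 0.728 and 0.681 in the shNC libraries, a log2 difference of 0.09 ± 0.0652 SE (exact permutation p = 0.2, adjusted 0.2). A p above the threshold does not show that they changed alike. The IFITM genes are paralogs with related sequences. Apart from that, annotated positions overlap: in GENCODE 29, 351 of the 1080 exon bases of IFITM1 also belong to IFITM2 on the same strand. The sources used here do not say how reads were split between related or overlapping genes, so both values are uncertain to that extent. Of the exon bases of IFITM3, 287 of 1348 (21.3%) also belong to AC136475.5 on the other strand. IFITM2 was looked up and is not in the table, which holds only genes past the authors' thresholds, so it has no values here.

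BST2 (ENSG00000130303, chr19:17402939-17405648, minus strand) encodes tetherin, which holds budding virus particles at the cell surface. It had 4147, 3930 and 4226 normalized counts in the libraries labelled shKMT5A, against 2067, 1919 and 2098 in the shNC libraries. It had the smallest change of the 10 genes, a log2 fold change of 1.02 ± 0.0558 SE (limma, adjusted p = 2.32e-08). In the authors' deposited table its log2 fold change was also 1.02, just inside the lowest absolute value, 1, that the table holds. With TMM scaling within the table the log2 fold change of BST2 was 0.42 (adjusted p = 1.11e-04), and those of IFITM1 and IFITM3 were 0.81 and 0.72. Under that scaling the median of all genes fell by 0.59. Such scaling takes most genes as unchanged, which does not hold for genes kept because they had been called different. These values are therefore no lower bound. BISPR, a non-coding gene divergent from BST2 that is known as an interferon-induced regulator of it, had 459, 399 and 406 normalized counts in the libraries labelled shKMT5A, against 127, 105 and 87.5 in the shNC libraries. Its log2 fold change was 1.99 ± 0.138 SE (limma, adjusted p = 1.42e-07).

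**Figure D3:**
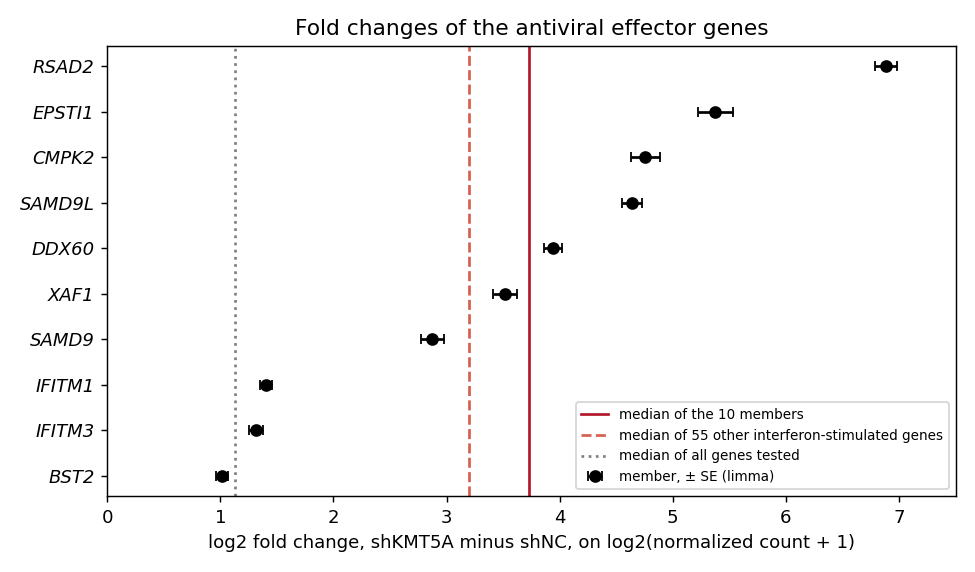
Log2 fold changes (shKMT5A minus shNC, horizontal axis) of the 10 genes with their standard errors from limma; lines mark the medians of the 10 genes (3.73), of 55 other interferon-stimulated genes (3.20) and of all 2885 genes (1.13). IFITM1, IFITM3 and BST2 lie below the median of the other interferon-stimulated genes, as does SAMD9.

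SAMD9 (ENSG00000205413, chr7:93099513-93118023) and SAMD9L (ENSG00000177409, chr7:93130055-93148369), both on the minus strand, are large cytoplasmic proteins that restrict poxviruses and repress translation. SAMD9L had 2200, 1884 and 2283 normalized counts in the libraries labelled shKMT5A, against 87.6, 81.8 and 82.6 in the shNC libraries, a log2 fold change of 4.64 ± 0.0914 SE (limma, adjusted p = 1.17e-11). SAMD9 had 2123, 1769 and 2248 in the libraries labelled shKMT5A, against 258, 300.3 and 273 in the shNC libraries, a log2 fold change of 2.88 ± 0.0979 SE (limma, adjusted p = 6.50e-10). The levels of the paralogs per length overlapped in the libraries labelled shKMT5A and did not overlap in the shNC libraries. Their ratio per length, SAMD9L over SAMD9, was 0.998 ± 0.0238 in the libraries labelled shKMT5A and 0.293 ± 0.0323 in the shNC libraries (SD, n = 3 each). The log2 ratio of their counts differed between groups by 1.78 ± 0.0938 SE without overlap (exact permutation p = 0.1, adjusted 0.15). SAMD9L was thus the more changed of the pair. Its promoter window had no exact ISRE core match but held the near match aaaactgaa, and a part of either in the change was not tested.

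**Figure D4:**
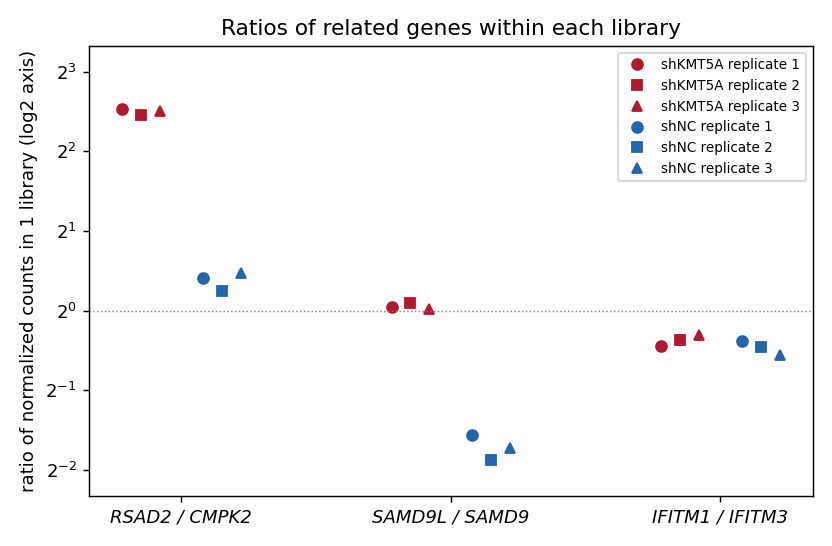
Ratios of normalized counts of related genes within each library (log2 axis; shKMT5A red, shNC blue, symbols give the replicate). RSAD2 over CMPK2 and SAMD9L over SAMD9 are higher in all 3 libraries labelled shKMT5A than in any shNC library, and IFITM1 over IFITM3 overlaps between the groups.

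DDX60 (ENSG00000137628, chr4:168216293-168318807, minus strand) is a helicase that promotes signalling by the RNA sensor RIG-I. It had 4552, 4066 and 4467 normalized counts in the libraries labelled shKMT5A, against 270.4, 314 and 266 in the shNC libraries. Its log2 fold change was 3.94 ± 0.0795 SE (limma, adjusted p = 1.37e-11). Its paralog and neighbour on chromosome 4, DDX60L, had 4085, 3667 and 4086 normalized counts in the libraries labelled shKMT5A, against 448, 488 and 453 in the shNC libraries, a log2 fold change of 3.09 ± 0.0672 SE (limma, adjusted p = 2.60e-11). The groups overlapped for neither helicase.

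XAF1 (ENSG00000132530, chr17:6755447-6775647, plus strand) binds the apoptosis inhibitor XIAP and favours cell death. It had 1991, 1612 and 1992 normalized counts in the libraries labelled shKMT5A, against 146, 163 and 178 in the shNC libraries. Its log2 fold change was 3.51 ± 0.106 SE (limma, adjusted p = 2.74e-10). PRAL, an antisense gene named after its values were seen, covers 2535 of the 6615 exon bases of XAF1 (38.3%). PRAL had 45.0, 28.7 and 32.8 normalized counts in the libraries labelled shKMT5A, against 0, 6.74 and 0.983 in the shNC libraries. Since the sources used here do not say whether counting used the strand, reads of the genes cannot be told apart there. FBXO39, the next protein-coding gene downstream of XAF1, had 22.0, 9.21 and 13.9 normalized counts in the libraries labelled shKMT5A and no read in any shNC library. Of 16 relatives and genomic neighbours listed, only 3 were in the table, DDX60L, BISPR and FBXO39. All 3 were higher, as were 57.4% of all genes in the table. The remaining listed genes have no values here.

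EPSTI1 (ENSG00000133106, chr13:42886388-42992271, minus strand), first described in breast cancer cells grown with stromal cells, is induced by interferon. It had 1246, 1064 and 1254 normalized counts in the libraries labelled shKMT5A, against 35.2, 25.0 and 23.6 in the shNC libraries. Its log2 fold change of 5.38 ± 0.153 SE (limma, adjusted p = 1.90e-10) came next after that of RSAD2 among the 10 genes. The shNC values rested on 24 to 37 reads a library, the fewest of the 10 genes, and its standard error was the widest.

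Levels between genes were compared as normalized counts per kb of the gene length in the file. In the libraries labelled shKMT5A, IFITM3 (8829 ± 415 per kb) and IFITM1 (8510 ± 530) overlapped at the top, followed without overlap by BST2 (3665 ± 137), RSAD2 (1429 ± 170) and DDX60 (646 ± 38.5; SD, n = 3 each). SAMD9, SAMD9L, CMPK2, XAF1 and EPSTI1 followed at 241 to 299 per kb, each overlapping the next. In the shNC libraries the same 5 genes spread from 5.68 to 40.4 per kb, a 7.12-fold range against 1.24-fold in the libraries labelled shKMT5A. Over all 10 genes, the highest level was 36.6 times the lowest in the libraries labelled shKMT5A and 625 times the lowest in the shNC libraries. The order was the same for IFITM3, IFITM1 and BST2 in both groups, while RSAD2 stood at place 4 in the libraries labelled shKMT5A. In the shNC libraries RSAD2 overlapped SAMD9L, which in turn overlapped CMPK2, at places 7 to 9. The 3 most abundant genes in the shNC libraries had the 3 smallest changes; the shNC level is part of the fold change, so this is a description and was not tested.

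**Figure D5:**
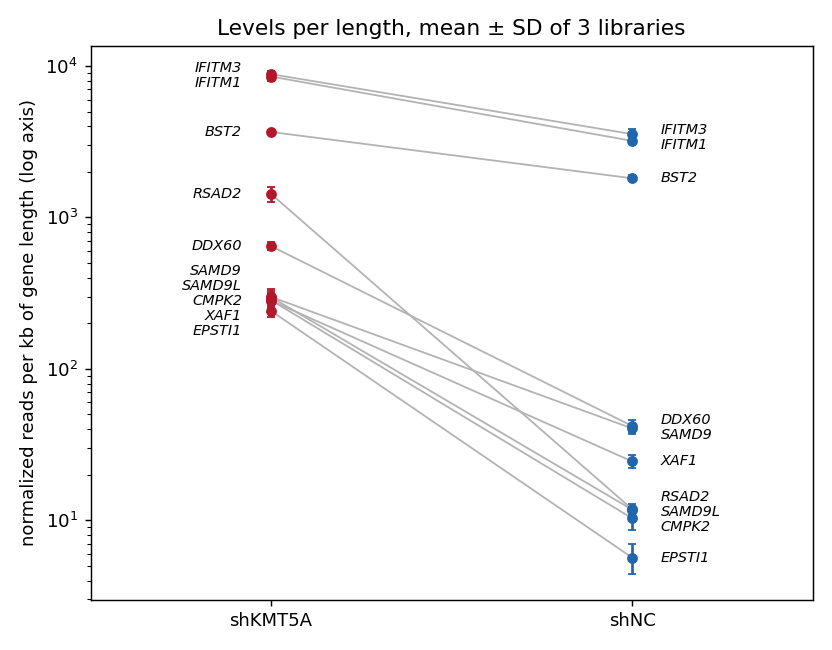
Mean levels of the 10 genes per kb of gene length (log axis) with SD over 3 libraries, shKMT5A left and shNC right; lines join the same gene. The 5 genes at the bottom left lie between 241 and 299 per kb in the libraries labelled shKMT5A and between 5.68 and 40.4 per kb in the shNC libraries. The order of genes depends on the annotated length, which is not that of the transcripts expressed.

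Together the 10 genes took 2.28 ± 0.146% of the counts of the table in the libraries labelled shKMT5A and 0.849 ± 0.0232% in the shNC libraries (SD, n = 3 each). RSAD2 held 15.3 ± 0.788% of the counts of the 10 genes in the libraries labelled shKMT5A and 0.512 ± 0.0536% in the shNC libraries. IFITM1 and IFITM3 held 47.0 ± 1.10% in the libraries labelled shKMT5A and 73.5 ± 0.760% in the shNC libraries.

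One library was lowest for every gene of the set. Of the 3 libraries labelled shKMT5A, replicate 2 had the lowest value of all 10 genes, with a median log2 deviation of -0.16 from the group mean. It was also lowest for 52 of the 55 other interferon-stimulated genes, but for only 37.2% of the 1655 genes called higher. The deviations were small beside the group differences, from -0.20 to -0.06 over the 10 genes. KMT5A was instead lowest in shKMT5A replicate 3. In the shNC libraries no library was lowest throughout: replicate 1 was lowest for 5 genes, replicate 2 for 3 and replicate 3 for 2. Without shKMT5A replicate 2 the median log2 fold change was 3.80.

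The listed genes of the rest of the pathway that the table holds moved the same way. Of 62 other interferon-stimulated genes listed, 55 were in the table, 55 higher and 0 lower. Over all 2885 genes, 57.4% passed as higher and 42.6% as lower. This list and those below were chosen with earlier results of these data known, and listed genes outside the table have no values here. MX2, a GTPase that restricts retroviruses, and IFI44L had the largest changes, with log2 fold changes of 8.29 and 8.37, and MOV10 and ZC3HAV1, RNA-binding antiviral proteins, the smallest, with 1.17 and 1.40. Of 21 interferon receptors, signalling factors and feedback inhibitors, the table held 7, each of them higher. STAT2, which carries the signal to the nucleus, averaged 4544 ± 311 normalized counts in the libraries labelled shKMT5A and 694 ± 36.7 in the shNC libraries (SD, n = 3 each), a log2 fold change of 2.71. The smallest log2 fold changes were 1.70 for SOCS1, a feedback inhibitor, and 1.09 for IRF2, a transcription factor that competes with IRF1.

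Of 11 interferon ligands, 3 were in the table and higher. IFNL1, a type III interferon, had 13.6, 13.3 and 7.95 normalized counts in the libraries labelled shKMT5A and no read in any shNC library. IFNE had 14.7, 8.19 and 8.94 in the libraries labelled shKMT5A, against 0, 2.89 and 2.95 in the shNC libraries. The remaining row is named IFNB1 but carries the position and length of IFI27, an interferon-stimulated gene, so it is not given as interferon beta, and 2 of 2 ligands were higher without it. All 10 effector genes stood at the position of their own identifier in GENCODE 29.

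By pattern over the 6 libraries, the other genes nearest to the median of the 10 were AC121764.2, ISG15, TRANK1, KRT75 and SLFN5. Likeness was the Euclidean distance on log2 of normalized count + 1, each gene taken relative to its shNC mean, and the 5 distances ran from 0.125 to 0.258. AC121764.2, a non-coding gene, rested on 11.9 ± 1.46 normalized counts in the libraries labelled shKMT5A and none in the shNC libraries, so its distance is set by the pseudocount of 1 and is no measured likeness. ISG15, a ubiquitin-like modifier, had a log2 fold change of 3.79, TRANK1 3.75, SLFN5, an interferon-induced gene, 3.76, and KRT75, a keratin, 3.65.

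Markers of leukocytes and plasmacytoid dendritic cells, which carry much BST2, were mostly not in the table: 4 of 14 were, of which CD8A was higher and CORO1A, GZMB and CD79A were lower. Summed, they had 114 to 139 normalized counts in the libraries labelled shKMT5A, against 489 to 548 in the shNC libraries. Most of that sum was CORO1A, which averaged 105 in the libraries labelled shKMT5A and 490 in the shNC libraries. CD8A, the marker that was higher, averaged 13.2 and 0.638. A marker outside the table may still be expressed, since the table holds only genes called different. PTPRC, CD3E, LILRA4 and CLEC4C, which define these cells, were not among the 4. None of the 4 was at 0 throughout a group, and their part in the results was not tested. For the colon epithelium, the table held 5 of 12 markers. KRT8, KRT18 and KRT19 were lower and MUC2 and CDH17 higher in the libraries labelled shKMT5A, and their sum was 45692 to 47212 there, against 144310 to 157141 in the shNC libraries. KRT8 and KRT18 were abundant in both groups, and CDH17 had no read in any shNC library. Their part in the results was not tested either.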

How the data were processed

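Total RNA of RKO cells was sequenced in 6 libraries, 3 per group. The submitters' processing notes list, on GRCh38, the tools DESeq2 1.20.0, featureCounts 1.5.0-p3, HISAT2 2.0.5, CASAVA 1.8 and fastp. The deposited signal values are counts per gene after division, by the authors, by a factor for each library: 100% of values were whole multiples (within 0.001) of the value of 1 read, 0.952 to 1.05. The log2 fold changes and adjusted p-values in the deposited table are the authors' own, and its values reach down to 1.00 (absolute log2 fold change) and up to 0.0499 (adjusted p). Columns were assigned to samples by treatment and number.

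In R 4.3.3, limma 3.58.1 with trend and robust settings was fitted to log2(value + 1) of all 2885 genes, none of which fell under the minimum mean of 1 normalized count. Fold changes are shKMT5A minus shNC, and p-values were adjusted (Benjamini-Hochberg) over the table at a threshold of 0.05. Ratios of gene pairs were compared by exact permutation (scipy 1.17.1). Alternatives changed the pseudocount, filter, scaling and variance prior, left out each library, blocked on replicate number, or fitted recovered reads with edgeR 4.0.16 and DESeq2 1.42.0 under the authors' scaling. Reads of shKMT5A replicate 3 were recovered as exactly as the others, but its value of 1 read lies near 1, so these fits were run with 5 and, as an addition after seeing the data, with all 6 libraries. All 10 genes were named. Of each list, members with the 2 largest and 2 smallest changes were named where more than 4 were in the table. One gene that this rule names is not reported here. The genes, lists and rules were chosen with earlier results of these data known. No pairing of the libraries by replicate number was seen in their deviations.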

Additional observations from a re-analysis of the deposited data

How the results depend on the processing

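All 10 genes were higher and past an adjusted p of 0.05 under each of 19 alternatives, with adjusted p up to 1.11e-04, and 54 or 55 of the other interferon-stimulated genes were higher. The authors selected these genes in the same libraries, so this stability is largely built in. The median log2 fold change of the 10 genes, 3.73, was 3.49 with columns scaled to equal table medians and 3.13 with TMM within the table, under which the median of all genes fell by 0.24 and fell by 0.59. Leaving out 1 library gave 3.67 to 3.80. With the replicate block the median was 3.73 and 10 genes passed. Deviations of same-numbered libraries correlated at -0.04, -0.04 and 0.00088 over 2885 genes, and 0 of 3 libraries labelled shKMT5A correlated best with its own number. No pairing by number was thus seen. Such correlations cannot show that same-numbered libraries were handled apart. With 5 libraries the shKMT5A group held 2. Over 7 alternatives (each library left out, pseudocount 0.1) the log2 ratio difference was 2.05 to 2.17 for RSAD2 over CMPK2, 1.70 to 1.86 for SAMD9L over SAMD9 and 0.05 to 0.13 for IFITM1 over IFITM3. Depth limits EPSTI1 and CMPK2 most, at 24 to 55 reads per shNC library.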

Other observations

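The arrangement seen in EPSTI1, IFITM1 and BST2, a GAS that overlaps an ISRE core by 3 bases, was noticed in these promoters and then counted over all windows. It was present in 3 of the 14 windows of the 10 genes, in 1 of 54 windows of the other interferon-stimulated genes, that of MX1, and in 41 of all 35116 windows (0.117%). The 3 genes differ in response, with log2 fold changes of 5.38 for EPSTI1, 1.41 for IFITM1 and 1.02 for BST2. Because the arrangement was found in these genes, its share among them is a description.

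The ISRE core alone was present in 33 of 54 windows of the other interferon-stimulated genes (61.1%). It was in 12.2% of 1585 windows of genes called higher with the 10 left out, and in 4.71% of 1083 windows of genes called lower. The 1585 windows still include the 54 of the other interferon-stimulated genes, which raise that share. The GAS was present in 10 of 54 windows of the other interferon-stimulated genes (18.5%), and in 6.88% and 6.65% of the windows of genes called higher and lower.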
